A study of Mus musculus with 16 samples.

Results

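Atrial and ventricular heart muscle cells use different forms of several contractile and calcium-handling proteins, and 6 genes that are enriched in atrial muscle were followed here in RNA from mouse ventricles. The members were chosen by symbol, as genes of atrial muscle: Sln, Myl4, Myl7, Mybphl, Bmp10 and Dkk3. All 6 were found among the 33399 genes of the count table, and all 6 passed the filter that left 16400 genes for testing. Levels are given as CPM, read counts scaled to the library total, and ran from Myl4, with a mean of 115 ± 87.2 CPM over all mice, to Bmp10, with 2.05 ± 2.92 CPM (SD, n = 16).

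The samples were ventricles of wild-type C57BL/6 mice of both sexes, 1 library per mouse, and the series asks how chronic kidney disease (CKD) remodels the heart. Mice in the CKD groups, 4 males and 4 females, were 8 weeks old at the start and were fed for 6 weeks on a diet containing 0.25% adenine, switched in turn with standard chow, with a blood urea nitrogen goal of 40 to 70 mg/dL. Crystals formed from adenine injure the kidney tubules, and effects of adenine and of the kidney disease cannot be told apart in these groups. Control mice, 4 males and 4 females of the same strain and age, ate standard chow for the same 6 weeks. The labels do not say how the atria were cut away. Sample titles carry a number after the letter C, of unstated meaning, which was 6 in 10 libraries, 2 in 3, 3 in 2 and 5 in 1.

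Myl7 encodes the regulatory light chain and Myl4 the essential light chain of atrial myosin, and the ventricle uses Myl2 and Myl3 in their place. Sln encodes sarcolipin, a small membrane peptide that inhibits the calcium pump of the sarcoplasmic reticulum, the role that phospholamban (Pln) has in the ventricle. Mybphl encodes a myosin-binding protein of the atria and the conduction system. It is related to Mybpc3, a thick-filament protein of heart muscle that is not confined to the ventricle. Bmp10 is a secreted growth factor of the bone morphogenetic protein family, made in the embryonic ventricle and, in adult mice, in the right atrium. Dkk3 encodes a secreted glycoprotein of the Dickkopf family, found in atrial muscle and also in other cells. Because these RNAs are abundant in atrial muscle and scarce in the adult ventricle, their level in a ventricle sample is commonly read as a sign of atrial tissue in it.

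In GENCODE M21 coordinates (GRCm38, the assembly also called mm10) Sln lies at chr9:53850164-53854560 on the plus strand with 1318 exon bases. Myl4 lies at chr11:104550663-104595753 on the plus strand with 4637 exon bases over 8 annotated transcript starts. Myl7 lies at chr11:5896637-5898782 on the minus strand with 590 exon bases. Mybphl lies at chr3:108364911-108380057 on the plus strand, and 6.97% of its 1276 exon bases overlap Gm12522 on the opposite strand, whose reads cannot be told apart from its own as the strand setting is not given. Bmp10 lies at chr6:87428994-87437677 on the plus strand with 4490 exon bases, and Dkk3 at chr7:112116017-112159057 on the minus strand with 3359.

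The RefSeq promoter table (GRCm38.p6) held 4 of the 6 members, and 3 windows are shown because their genes carried the 2 patterns below: Myl7 and Mybphl, whose levels moved together, and Bmp10, whose level over all 16 mice had no called correlation with theirs. Each runs 5′ to 3′ on the gene's strand from 250 bases before the start site to 50 after it. Capitals mark GATAA on the strand shown, the core that GATA factors of the heart bind, and in Myl7 also the CArG box that serum response factor binds. The Myl4 window sits at the outermost of its 8 starts and is not shown. It held none of the 3 patterns searched, though the level of Myl4 moved together with those of Myl7 and Mybphl.
Myl7, chr11:5898733-5899032, minus strand: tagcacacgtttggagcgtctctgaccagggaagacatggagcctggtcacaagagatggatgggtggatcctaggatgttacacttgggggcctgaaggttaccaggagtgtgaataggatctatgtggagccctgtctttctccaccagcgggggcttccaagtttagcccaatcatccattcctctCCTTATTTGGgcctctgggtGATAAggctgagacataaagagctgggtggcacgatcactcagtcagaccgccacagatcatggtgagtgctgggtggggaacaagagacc
Mybphl, chr3:108364661-108364960, plus strand: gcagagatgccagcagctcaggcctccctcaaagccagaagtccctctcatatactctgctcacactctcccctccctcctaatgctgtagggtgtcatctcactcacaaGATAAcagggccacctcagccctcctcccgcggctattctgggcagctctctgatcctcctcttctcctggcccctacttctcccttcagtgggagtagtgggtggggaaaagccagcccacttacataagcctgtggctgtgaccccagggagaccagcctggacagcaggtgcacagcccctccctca
Bmp10, chr6:87428744-87429043, plus strand: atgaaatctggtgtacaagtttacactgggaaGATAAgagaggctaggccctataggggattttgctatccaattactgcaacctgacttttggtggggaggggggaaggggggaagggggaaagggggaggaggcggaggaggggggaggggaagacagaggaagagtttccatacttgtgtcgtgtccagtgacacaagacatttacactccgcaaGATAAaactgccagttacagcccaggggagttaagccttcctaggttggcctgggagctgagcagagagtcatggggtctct
GATAA, searched on both strands, stood at base -41 from the start site in Myl7, at -140 in Mybphl, and at -218 and -32 in Bmp10, and 25.4% of 32851 such windows hold it. The CArG box stood at -61 in Myl7 and occurs in 1.63% of windows. The T-box core AGGTGT, searched on both strands and found in 13.7% of windows, was in none of the 3 windows, which says only that these letters are absent from these windows. None of the 3 motifs overlaps another here, and a match is a description of letters, not of binding.

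Library totals lay between 10203700 and 13626000 counts. Libraries of a group differed by more than counting noise in every pair, with a chi-square per degree of freedom of 8.03 to 58.8, and the highest values involved male CKD 4 (46.2 to 58.8) and, among the females, female control 2 (up to 45.9). Each library was taken as 1 of the 8 mice per arm that the series states, litters and cages are not stated, and the numbers 1 to 4 within a group only name a mouse. Myl2 and Myl3, the light chains of ventricular muscle, averaged 1633 ± 278 and 1610 ± 285 CPM per kilobase of exon over the 16 libraries (SD). On the same scale Myl7 averaged 163 ± 117, Myl4 24.8 ± 18.8, Sln 19.5 ± 15.99, Dkk3 7.88 ± 3.26, Mybphl 7.42 ± 5.84 and Bmp10 0.458 ± 0.650 CPM per kilobase (SD, n = 16). Myl7 therefore led the 6 genes per length. These SDs are between mice, and the genes were measured in the same libraries. Mouse by mouse, Myl4 lay above Sln in all libraries except female CKD 3, at 18.0 against 20.8 CPM per kilobase. The order of Dkk3 and Mybphl differed between mice, with 7.18 against 7.75 in male CKD 1 and 9.15 against 7.61 in male CKD 2. The length of Myl4 counts the exons of all its transcripts.

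Myl7, the atrial regulatory light chain, differed 8.38-fold among the male CKD mice alone. It had 89.3, 110.3, 26.4 and 221.0 CPM in male CKD mice 1 to 4, against 90.9, 45.3, 250.1 and 37.0 CPM in male control mice 1 to 4. In females it had 41.0, 72.1, 87.1 and 59.1 CPM in CKD mice, against 50.7, 127.0, 39.0 and 196.0 CPM in control mice. High libraries stood in both arms: male control 3, male CKD 4 and female control 4 were the 3 highest, and male CKD 3 was the lowest, so the ranges overlapped in each sex. Male CKD 4 and male control 3 were also the only 2 libraries with title number 3, and both were among the 3 highest in Sln, Myl4, Myl7 and Mybphl, so that number and a high level cannot be told apart in these 2. Within title number 6 Myl7 ran from 26.4 to 89.3 CPM in 5 CKD mice and from 39.0 to 127.0 CPM in 5 control mice. Over all mice the mean was 88.3 ± 60.1 CPM in CKD and 104.5 ± 80.6 CPM in control (SD, n = 8 each). The medians had the opposite order, at 79.6 CPM in CKD and 70.8 CPM in control. Over all 16 mice the highest library was 9.49 times the lowest. In bulk RNA, fewer cells of a type and less RNA per cell cannot be told apart, and whether atrial tissue was carried over or ventricular cells made these RNAs was not tested.

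Myl4, the atrial essential light chain, ranked the mice in nearly the same way. Its level was 85.0, 124.7, 27.5 and 237.9 CPM in male CKD mice, against 109.6, 60.6, 325.7 and 49.7 CPM in male control mice. Female CKD mice had 42.5, 73.5, 83.5 and 85.1 CPM, against 53.7, 167.9, 57.5 and 255.7 CPM in female control mice. Male control 3 was again the highest library and male CKD 3 the lowest, 11.8-fold apart, and the arms overlapped in both sexes. Means were 94.97 ± 64.8 CPM in CKD and 135 ± 106 CPM in control (SD, n = 8 each), and medians 84.3 and 85.1 CPM.

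Sln, the calcium pump inhibitor of the atria, followed the light chains at a lower level. It had 17.2, 33.4, 7.06 and 43.6 CPM in male CKD mice, against 23.5, 15.4, 77.8 and 7.73 CPM in male control mice. In female CKD mice it had 9.85, 18.0, 27.4 and 12.7 CPM, against 10.2, 31.4, 9.26 and 66.8 CPM in female control mice. The same 3 libraries led (male control 3, female control 4 and male CKD 4), and the arms overlapped. The mean was 21.2 ± 12.6 CPM in CKD and 30.3 ± 27.3 CPM in control (SD, n = 8 each), and the extremes were 11.02-fold apart. Medians were 17.6 CPM in CKD and 19.4 CPM in control.

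Mybphl, the atrial myosin-binding protein gene, had the widest range of these 4 genes, 14.2-fold. Male CKD mice had 9.89, 9.71, 1.88 and 17.5 CPM, against 9.13, 4.76, 26.6 and 3.86 CPM in male control mice. Female CKD mice had 3.74, 7.57, 7.49 and 6.20 CPM, against 2.80, 11.6, 4.01 and 24.7 CPM in female control mice. Male control 3 and female control 4 were high and male CKD 3 was low, with overlap of the arms in both sexes. Means were 8.00 ± 4.73 CPM in CKD and 10.9 ± 9.57 CPM in control (SD, n = 8 each). The medians had the opposite order, at 7.53 CPM in CKD and 6.94 CPM in control.

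Dkk3, the secreted Dickkopf family protein, varied less, with a 5.53-fold range. It stood at 24.1, 30.7, 9.29 and 23.7 CPM in male CKD mice, against 26.6, 20.0, 51.4 and 16.8 CPM in male control mice. It stood at 19.7, 22.4, 23.3 and 30.3 CPM in female CKD mice, against 23.9, 37.1, 17.1 and 47.0 CPM in female control mice. Male control 3 and female control 4 were again the highest and male CKD 3 the lowest, but male CKD 4, high in the 4 muscle genes, was in the middle for Dkk3. The arms overlapped, with means of 22.9 ± 6.70 CPM in CKD and 29.98 ± 13.6 CPM in control (SD, n = 8 each), and medians of 23.5 and 25.2 CPM.

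**Figure D1:**
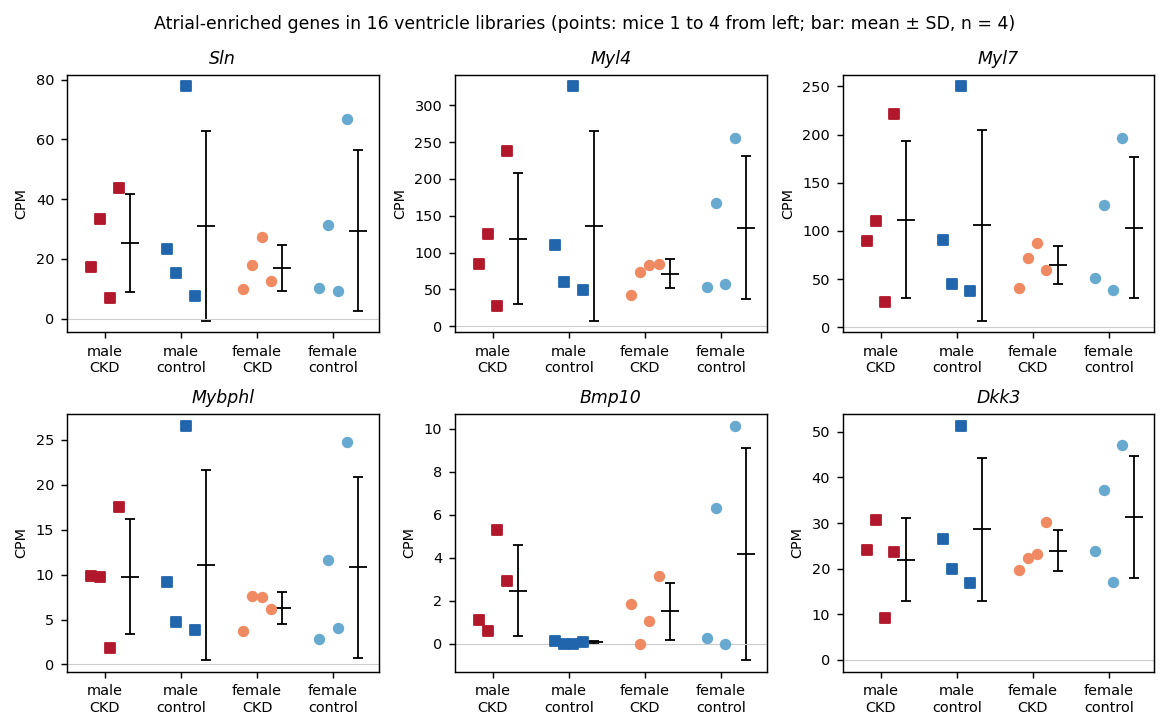
CPM of each of the 6 genes (vertical axis, linear) in every mouse, with CKD left of control in each sex (points, mice 1 to 4 from left; bars, mean ± SD, n = 4). Male control 3 and female control 4 stand high in 5 panels, and in the Bmp10 panel male control mice lie at or near 0.

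Bmp10, the right atrial growth factor of adult mice, was scarce and did not rank the mice as the other genes did. Its raw counts were 15, 7, 59 and 31 in male CKD mice, against 2, 0, 0 and 1 in male control mice. They were 22, 0, 14 and 34 in female CKD mice, against 3, 72, 0 and 103 in female control mice. Female control 4 and female control 2 had the most, and male CKD 3, lowest of all libraries for the other 5 genes, was next. Male control 3, highest for the other 5 genes, was one of 4 libraries at 0, where a floor of 3 counts allows up to 0.249 CPM, against a Myl7 level of 250.1 CPM in that mouse. In the others at 0 the floor was 0.303 CPM in female CKD 2, 0.216 CPM in male control 2 and 0.246 CPM in female control 3. These floors and the intervals of count ratios cover counting error alone.

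Within males Bmp10 counts did not overlap, at 7 to 59 in CKD against 0 to 2 in control, and 3.20% of the 16400 tested genes had no overlap between the male arms. Summed over mice, 112 counts in male CKD against 3 in male control gave a ratio of 37.7 per total count of the tested genes. These totals had no TMM scaling, and the 95% counting interval of 12.6 to 186 leaves out the spread between mice. In females the ranges overlapped, and 70 counts in CKD against 178 in control gave a ratio of 0.374 (0.280 to 0.496). The other 5 members overlapped in each sex and over all mice, where 0.201% of tested genes had no overlap between 8 CKD and 8 control mice.

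The spread between mice of a group, as the SD of log2(CPM + 0.1) around group means, was 1.18 for Sln, 1.18 for Mybphl, 1.08 for Myl4 and 1.07 for Myl7. These values exceeded those of 99.6%, 99.6%, 99.2% and 99.2% of the tested genes in that order, against a median of 0.301 over all tested genes. Bmp10 had 2.10, the second highest of all, at a level where counting noise is large. Its spread still exceeded that of 99.8% of the 1139 tested genes within 0.5 log2 units of its level. Dkk3 had 0.62, above 88.0% of genes. Of the related genes Myl2 had 0.24, Myl3 0.23 and Mybpc3 0.34.

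Sln, Myl4, Myl7 and Mybphl moved together from mouse to mouse. Across the 16 mice the 6 pairs among them had Pearson's r of 0.953 to 0.978 and Spearman's rho of 0.926 to 0.971 in log2 CPM, each with a permutation p of 1e-05, the smallest that 100000 resamples can give, and an adjusted p of 2.5e-05 over the 15 pairs of members. Without the 2 libraries farthest from the median, r was 0.917 to 0.966, and within the 10 libraries with title number 6 it was 0.914 to 0.952. After group means were taken out r was 0.953 to 0.987, so the relation held among mice of the same sex and diet.

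Dkk3 also varied with them, with r of 0.833 to 0.872 and rho of 0.794 to 0.882 against the 4 muscle genes, where the highest permutation adjusted p was 6e-05 for r and 0.00057 for rho. Without the 2 farthest libraries r was 0.696 to 0.781, and within title number 6 it was 0.808 to 0.906. No pair with Bmp10 passed: its 5 pairs had r of 0.0934 to 0.196 and permutation adjusted p of 0.627 to 0.737. These low values depend on which libraries are counted. Without male CKD 3 and male control 3, the 2 farthest in those genes, r with Bmp10 was 0.651 for Myl4, 0.651 for Myl7 and 0.622 for Mybphl. With other pairs left out as farthest it was 0.213 for Sln and -0.19 for Dkk3, and within title number 6 the 5 values were -0.0564 to 0.0974. Of the 15 pairs, 10 passed the adjusted threshold of 0.05.

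**Figure D2:**
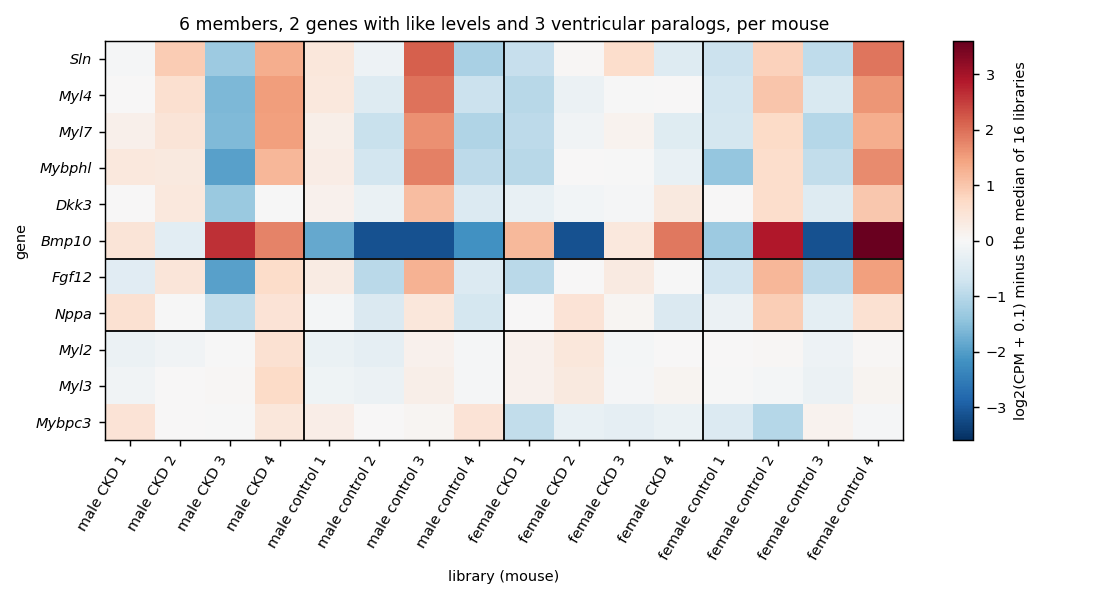
Log2(CPM + 0.1) minus its median over 16 libraries (colour) for the 6 members, for Fgf12 and Nppa, and for the related genes Myl2, Myl3 and Mybpc3 (rows), by mouse (columns, CKD left of control in each sex). The top 5 rows share most of their red and blue columns, Bmp10 has others, and Myl2 and Myl3 stay pale.

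Ratios to Myl7 within a library varied 1.77-fold for Sln, 1.55-fold for Myl4 and 2.28-fold for Mybphl. Per Myl7 count there were 0.193 to 0.341 Sln counts, 0.952 to 1.475 Myl4 counts and 0.0553 to 0.126 Mybphl counts, though Myl7 itself ranged 9.49-fold. On log scales the slope against Myl7 was 1.06 ± 0.07 for Sln, 1.001 ± 0.058 for Myl4 and 1.06 ± 0.07 for Mybphl (SE, n = 16), that is, in proportion. Dkk3 had a slope of 0.51 ± 0.09 and 0.107 to 0.513 counts per Myl7 count. A straight line on the linear scale met a Myl7 level of 0 at 14.3 CPM for Dkk3 (SE 3.004), whereas the lines of Sln, Myl4 and Mybphl met it within 1 SE of 0.

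Nppa, the gene of atrial natriuretic peptide, which is the main secreted hormone of atrial muscle and is also made in stressed ventricle, also varied with Myl7. Their correlation was r = 0.79 and rho = 0.77 (permutation p = 0.00033 for r, adjusted p = 0.00132 over 4 genes), with r = 0.754 without the 2 farthest libraries and 0.856 within title number 6. Its slope was 0.41 ± 0.09 and its line met a Myl7 level of 0 at 117.5 CPM (SE 20.4), within a range of 87.6 to 297.6 CPM. The ventricular light chains and Mybpc3 did not pass the same test, with r of 0.397 for Myl2 (adjusted p = 0.170), 0.471 for Myl3 (adjusted p = 0.125) and 0.0938 for Mybpc3 (adjusted p = 0.730), all by permutation.

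**Figure D3:**
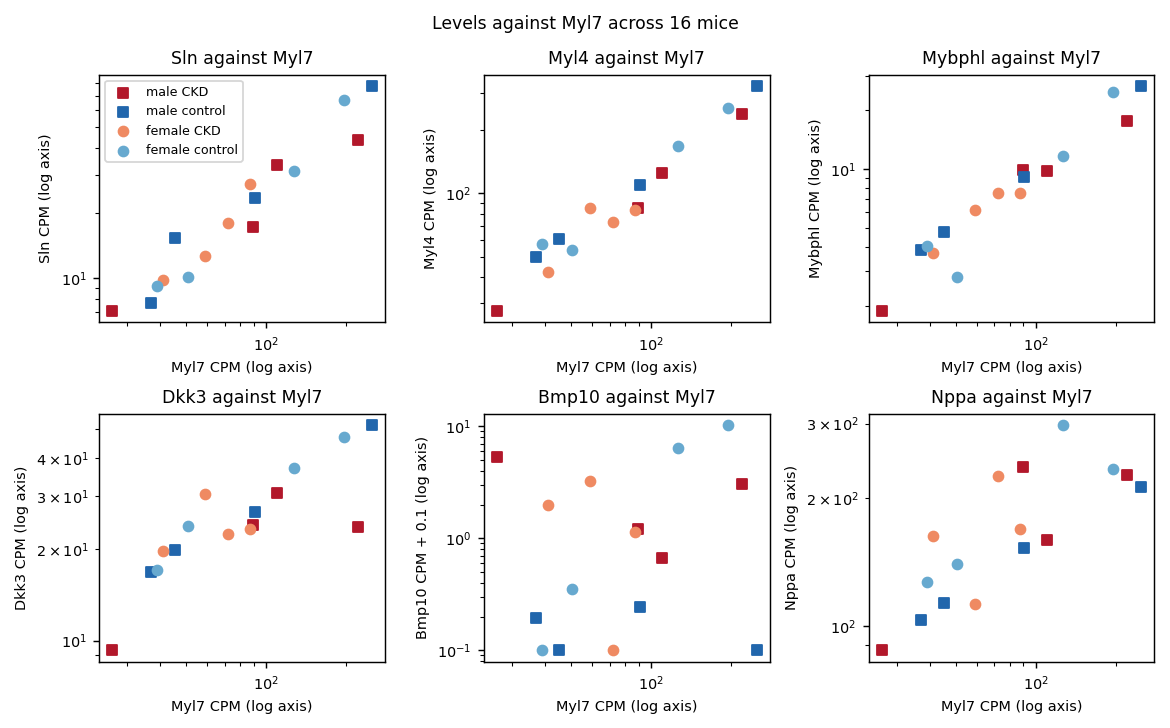
CPM of 5 members and Nppa (vertical, log axis, with 0.1 added for Bmp10) against Myl7 CPM (horizontal, log axis) in 16 mice (squares, males; circles, females; red shades, CKD; blue shades, control). Sln, Myl4 and Mybphl lie along a line of slope near 1, Dkk3 and Nppa along flatter ones, and Bmp10 is scattered.

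Besides the members, 1 of the 11306 protein-coding genes compared had an r above 0.9 with the mean of the 6 members' standardized levels. This was Fgf12, which encodes a fibroblast growth factor homologous factor that binds voltage-gated sodium channels, at r = 0.942, with 0.944 within title number 6 and a range of 0.983 to 11.53 CPM. Lmntd1 followed at 0.877 and Nppa at 0.771, and next came Rpl13a, a ribosomal protein gene, at 0.762. Nagk (0.744), Caml (0.727), Tbc1d10c (0.727) and Lgals3 (0.712) completed the 8 most alike. These r values describe 16 libraries that share depth and handling and carry no p. Taken member by member, Sln and Myl4 were each most like Myl7, Myl7 and Mybphl most like Myl4 (r of 0.967 to 0.978), Dkk3 most like Fgf12 (0.906) and Bmp10 most like Mcmbp (0.776).

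None of 13 gene lists passed a test of its summed CPM against Myl7. The permutation p, adjusted over the lists, was at least 0.568 in every case. The lists held markers of tissue that could come with a ventricle sample, and also ventricular muscle genes and the pathways of Sln, Bmp10 and Dkk3. A sum is led by abundant genes, such as Fabp4 (mean 472 CPM) among adipocyte genes and Acta1 (161 CPM) among fast skeletal muscle genes. Scarcer markers hardly weigh in it, so the test cannot decide whether they varied with Myl7. The 14 measured other atrial-enriched genes, which include channels and transcription factors that the ventricle also expresses, summed to 1443 to 1985 CPM in CKD and 1352 to 1934 CPM in control, and 1 of the 14, Nppa, had an r above 0.5 with Myl7. Their sum had r = 0.297 with Myl7 over 16 mice and 0.734 within title number 6. Of 8 measured genes of the sinoatrial and conduction nodes, Cacna1d, a pacemaker calcium channel gene, had r = 0.602 and Shox2, a sinoatrial transcription factor gene, r = 0.545.

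Fibroblast genes summed to 169.8 to 1092 CPM in CKD and 800 to 1018 CPM in control, with the lowest value in male CKD 4, and endothelial genes to 179.8 to 647.5 CPM in CKD and 496.7 to 703.4 CPM in control. Great vessel smooth muscle genes summed to 162.7 to 307.4 CPM in CKD and 146.8 to 488.5 CPM in control. The 5 lung epithelial genes were all below the filter, yet they summed to 7.77 CPM in female CKD 4, with 61 counts of the surfactant gene Sftpc, against 0.222 to 0.663 CPM in the other CKD mice and 0.0850 to 0.499 CPM in control mice. Myl7 was at 59.1 CPM in that mouse, and the part of the lung RNA in the results was not tested. Against Myl7 the sums had r of -0.33 for fibroblast, -0.35 for endothelial and 0.20 for smooth muscle genes, none of which passed the test. Male CKD 4, lowest in fibroblast and endothelial genes, was among the 3 highest in Myl7, and the part of those cells in the results was not tested.

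Myl7 and Myl4 were set against a ventricular light chain, and Mybphl against Mybpc3, within a library, which removes the scaling of the library. The atrial genes again overlapped between the arms. The ratio of Myl7 to Myl2 per kilobase was 10.9%, 12.8%, 2.84% and 15.9% in male CKD mice, against 11.4%, 5.97%, 23.8% and 4.04% in male control mice. It was 3.91%, 5.78%, 9.76% and 6.16% in female CKD mice, against 5.28%, 13.1%, 4.71% and 20.1% in female control mice. Male control 3 and female control 4 were again the highest. The mean was 8.50% ± 4.58 in CKD and 11.04% ± 7.52 in control (SD, n = 8 each), a log2 difference of -0.29 with an exact permutation p of 0.546 over 4900 two-sided regroupings within sex (adjusted p = 0.731 over 3 ratios).

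Myl4 to Myl3 was 1.15% ± 0.573 in CKD and 1.86% ± 1.27 in control, a log2 difference of -0.59 (exact permutation p = 0.232, adjusted p = 0.697). Mybphl to Mybpc3 was 0.925% ± 0.368 in CKD and 1.40% ± 1.22 in control, a log2 difference of -0.20 (exact permutation p = 0.731, adjusted p = 0.731). With single libraries left out the difference ran from -0.49 without male control 4 to -0.058 without male CKD 3 for Myl7 to Myl2, and from -0.77 to -0.36 without the same libraries for Myl4 to Myl3. For Mybphl the sign turned when any of 4 libraries was left out, with differences between -0.42 and 0.079. A difference below the spread between mice does not show that the arms were alike.

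**Figure D4:**
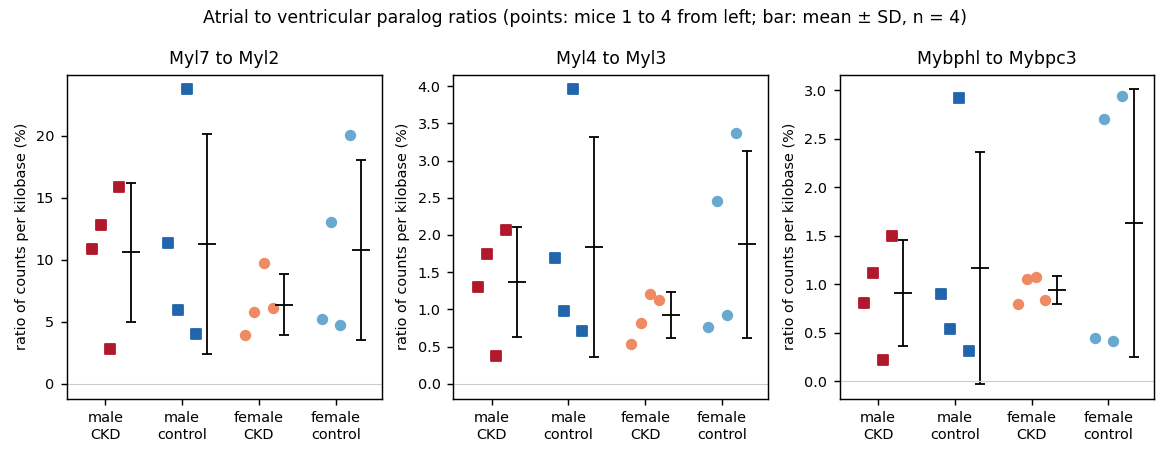
Atrial gene over related gene in percent of counts per kilobase (vertical axis) for Myl7 to Myl2, Myl4 to Myl3 and Mybphl to Mybpc3, with CKD left of control in each sex (points, mice 1 to 4 from left; bars, mean ± SD, n = 4). High and low mice occur in both arms, and female CKD mice are the tightest group.

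None of the 6 genes was called for CKD against control by edgeR's quasi-likelihood test, where 14 of 16400 genes (0.0854%) passed an adjusted p of 0.05. None had an unadjusted p under 0.05 either, a level that 15.4% of tested genes passed, and DESeq2, which called 2.43% of genes, called no member. The log2 fold changes, CKD over control with sex as a covariate, were -0.55 for Myl4 (SE 0.45, edgeR adjusted p = 0.572), -0.54 for Sln (SE 0.49, adjusted p = 0.612) and -0.48 for Mybphl (SE 0.48, adjusted p = 0.653). Myl7 had -0.29 (SE 0.45, adjusted p = 0.772), Dkk3 -0.38 (SE 0.26, adjusted p = 0.489) and Bmp10 0.52 (SE 1.004, adjusted p = 0.820). The sign was negative for 5 of 6, where 50.2% of tested genes were positive, and the median was -0.43 against 0.00 over all tested genes. These 5 genes varied together from mouse to mouse (r of 0.833 to 0.978), so their shared sign is not 5 separate results. The 95% intervals were wide, from -1.51 to 0.40 for Myl4 and from -1.24 to 0.65 for Myl7. These values rest on a few libraries. Without male control 3, the library highest in 5 of the 6, they became -0.12 for Sln, -0.19 for Myl4, -0.10 for Mybphl, -0.18 for Dkk3, 0.23 for Bmp10 and, with its sign turned, 0.059 for Myl7. Without female control 4 they became -0.19 for Sln, -0.31 for Myl4, -0.12 for Mybphl and -0.057 for Myl7, and without male CKD 4 -0.84 for Myl4 and -0.58 for Myl7. Bmp10 lay between 0.08 without male CKD 3 and 1.28 without female control 4. Within the 10 libraries with title number 6 the values were -0.54 for Myl4, -0.20 for Sln, -0.08 for Mybphl, -0.17 for Myl7, -0.35 for Dkk3 and 0.60 for Bmp10, none of them called.

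In males alone no gene of 16400 was called (0%). Member log2 fold changes were -0.30 for Sln, -0.20 for Myl4, 0.08 for Myl7, -0.19 for Mybphl and -0.38 for Dkk3, and without male control 3 these 5 values became 0.70, 0.69, 0.95, 0.71 and 0.056. Bmp10 had 5.13, with an unadjusted edgeR p of 0.00694 that did not pass adjustment (adjusted p = 0.581), in a test where 6.88% of genes had an unadjusted p under 0.05. This fitted value depends on the prior count, since male control mice had 3 counts in all. In females 9 genes were called (0.0549%), none of them a member, and no member had an unadjusted p under 0.05, where 8.34% of genes did. All 6 fold changes were negative, where 49.3% of tested genes were positive, at -0.78 for Sln, -0.91 for Myl4, -0.67 for Myl7, -0.78 for Mybphl, -1.43 for Bmp10 and -0.38 for Dkk3. Without female control 4, the highest female library for all 6, these became -0.032, -0.43, -0.19, -0.015, -0.54 and -0.16. The members other than Bmp10 varied together across mice, so their signs are not separate results here either. The CKD effects of the sexes were not called different for any member or any tested gene (0%), and 1.68% had an unadjusted p under 0.05. Of the members only Bmp10 was among these, with a difference of -6.56, female minus male, an unadjusted edgeR p of 0.00405 and an adjusted p of 0.999999.

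**Figure D5:**
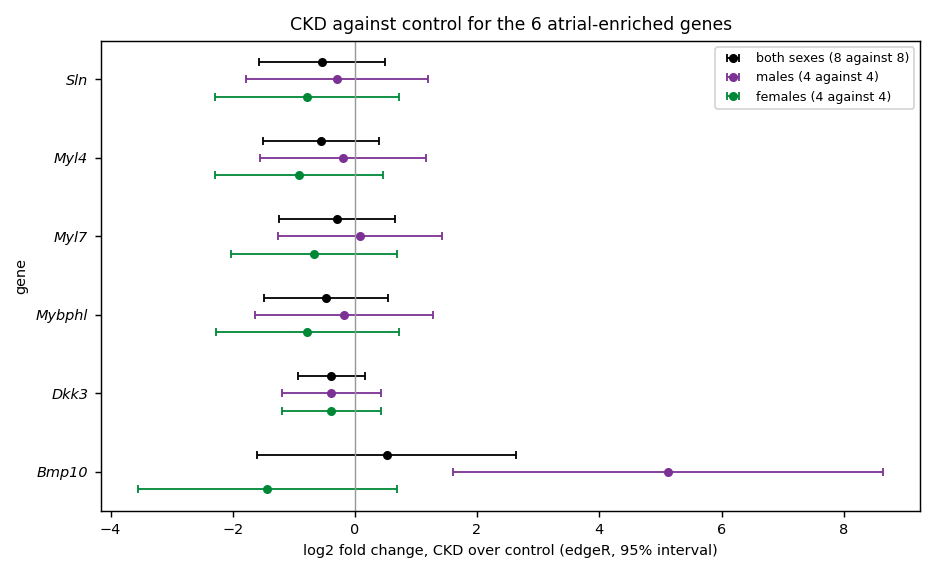
Log2 fold change of CKD over control with its 95% interval from edgeR (horizontal axis) for the 6 genes (rows), for both sexes together, males and females. All intervals but that of Bmp10 in males cross 0, and no adjusted p was below 0.05.

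Between the sexes no member was called, among 7 genes called for female over male in CKD (0.0427%) and 6 in control (0.0366%). An unadjusted p under 0.05 was seen for 15% of genes in CKD and 6.84% in control, and for no member in CKD and Bmp10 alone in control. In CKD mice the log2 fold changes, female over male, were -0.57 for Sln, -0.74 for Myl4, -0.78 for Myl7, -0.64 for Mybphl, -0.68 for Bmp10 and 0.12 for Dkk3. In control mice they lay between -0.09 and 0.12 for the 5 members other than Bmp10, and the signs of these 5 turned with single libraries left out. Bmp10 had 5.88 (SE 1.59, edgeR adjusted p = 0.639) on 178 counts in females and 3 in males.

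The other genes of these pathways were not called for CKD against control either. Of 12 ventricular muscle genes 8 had positive fold changes (median 0.17), led by Tnnt2, the troponin T that anchors the troponin complex to the thin filament, at 0.36 (SE 0.10, edgeR adjusted p = 0.123), with Tnni3 (troponin I) at 0.26 and Myh7 (slow myosin) at 0.32. Of the 14 other atrial-enriched genes 5 were positive and 9 negative (median -0.09). Hey1, a Notch target, had -0.74 (SE 0.21, edgeR adjusted p = 0.123), the muscarinic receptor gene Chrm2 0.43 (SE 0.13, adjusted p = 0.142) and Nppa 0.02 (SE 0.24).

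For sarcolipin's pathway, Pln had 0.17 (SE 0.08, edgeR adjusted p = 0.329) and the pump gene Atp2a2 0.02 (SE 0.14), and 3 of the 6 measured genes other than Sln were positive. Of 12 BMP pathway genes other than Bmp10, 3 were positive, and the endothelial receptor gene Acvrl1, a receptor for Bmp10 protein, had -0.33 (SE 0.16, edgeR adjusted p = 0.324). Of 6 measured Dickkopf and Wnt antagonist genes other than Dkk3, 2 were positive, and all 8 nodal genes were negative (median -0.26), with none called in any of these lists.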

How the data were processed

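RNA of ventricles from 16 mice was sequenced as 50 bp paired-end reads, per the labels' protocols. The deposited table holds raw counts of reads per gene, not normalized by the authors. STAR 2.6.1d, Subread 1.6.3 with its featureCounts program, DESeq2 1.30.1 and the mm10 assembly are listed in the submitters' processing notes. Neither the gene annotation, nor the strand setting, nor the handling of reads with several matches was stated, so overlapping or shared sequence can shift a count. Of 33399 gene identifiers, 33367 matched GENCODE M21 (32027 with the same version), which gave symbols, positions and exon lengths.

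Counts were tested with edgeR 4.0.16 (R 4.3.3): filterByExpr on the 4 groups (minimum count 10, total 15) left 16400 genes holding at least 99.8% of each library, with TMM scaling, a quasi-likelihood F test and Benjamini-Hochberg adjustment over all tested genes (two-sided, threshold 0.05). CKD against control had sex as a covariate, and the other comparisons were contrasts of a 4-group model. The steps were tested on simulated data. The common biological coefficient of variation, over all tested genes, was 0.225. The members spread more than most genes, with SDs of log2(CPM + 0.1) within groups of 0.62 to 2.10 against a median of 0.301. With 10203707 to 13626039 counts per library, this spread between mice limits the precision of all members, with counting error added for Bmp10. CPM used the library totals of the tested genes times the TMM factors, and log2 values had 0.1 CPM added. These factors ran from 0.877 in male CKD 4 to 1.06 in male control 3. Paralog ratios used exact permutation within sex and correlations 100000 permutations (scipy 1.17.1).

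Alternatives were DESeq2 1.42.0, RLE scaling, no filter and a filter of 1 CPM in 8 libraries, the title number as a factor or its most frequent value alone, no sex term, ratios of raw counts, and each library or the pair male CKD 4 and female control 2 left out. The members, lists and tests were chosen with earlier results of these data known. Besides the members, the genes named are Nppa, the paralogs, up to 3 genes per list with the lowest p, and the 8 genes most alike in pattern with 1 per member. Atp2a2, Cacna1d and Shox2 were chosen after their values were seen. Strit1, of the sarcolipin list, was not matched in the table.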

Additional observations from a re-analysis of the deposited data

How the results depend on the processing

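No member was called in any comparison under any alternative run, and for CKD over control the sign of each member held in all of them except Bmp10, at -0.044 with no sex term, and Myl7, between -0.58 and 0.059 with single libraries left out. No paired analysis was possible because the labels carry no replicate numbers. The member nearest to the threshold was Bmp10 for female over male in control, with adjusted p-values of 0.0635 to 0.993 over the alternatives. The spread between mice limits all 6 members, and counting error adds to it for Bmp10, which was at 0 in 4 libraries.

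Counts over all genes moved more than the members did. For CKD over control, 14 genes became 398 with DESeq2, 53 with no filter, 234 with the title number as a factor, 22 without both male CKD 4 and female control 2, and 8 in the libraries with title number 6. With single libraries left out the count was 6 to 43: it was 6 to 9 without female CKD 1, 2 or 3, male CKD 1, female control 1, 3 or 4, or male control 3 or 4, 37 without male control 2 and 43 without female CKD 4. In males 0 became 12 with DESeq2 and 1 with no filter, and 0 to 1 with single libraries left out. In females 9 became 32 with DESeq2, and 0 to 13 with single libraries left out. For female over male in CKD, 7 became 59 with DESeq2 and 15 without both libraries. For female over male in control, 6 became 12 with DESeq2, and 6 to 10 with single libraries left out.

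Signs of members that were not called turned as follows, and the cause was not tested. With the title number as a factor, female over male in CKD was 0.51 for Sln, 0.23 for Myl4, 0.14 for Myl7 and 0.061 for Mybphl, and in control it was 0.70, 0.73, 0.73 and 0.57 for the same genes. In that model Myl7 in males was -0.0072 and the sex difference of the CKD effect was 0.14 for Dkk3. Without male CKD 4 and female control 2, Myl7 in males was -0.51 and that sex difference was 0.0031 for Myl4 and 0.12 for Dkk3. With no filter, Myl4 in control, female over male, was 0.00249.

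With single libraries left out, CKD over control ran from -0.73 to -0.12 for Sln, -0.84 to -0.19 for Myl4, -0.69 to -0.10 for Mybphl and -0.50 to -0.18 for Dkk3, each highest without male control 3, and from 0.08 to 1.28 for Bmp10. In females it ran from -1.12 to -0.032 for Sln, -1.19 to -0.43 for Myl4, -0.97 to -0.19 for Myl7, -1.10 to -0.015 for Mybphl, -2.03 to -0.54 for Bmp10 and -0.62 to -0.16 for Dkk3, each highest without female control 4. In males it ran from -0.66 to 0.70 for Sln, -0.75 to 0.69 for Myl4, -0.46 to 0.95 for Myl7, -0.59 to 0.71 for Mybphl and -0.60 to 0.056 for Dkk3, each highest without male control 3. The sex difference of the CKD effect ran from -1.48 to 0.28 for Sln, -1.49 to 0.19 for Mybphl and -0.44 to 0.24 for Dkk3, each highest without female control 4. Female over male in CKD ran from -1.27 to 0.017 for Bmp10, highest without male CKD 3, and from -0.13 to 0.32 for Dkk3. In control it ran from -0.85 to 0.91 for Sln, -0.53 to 0.86 for Myl4, -0.53 to 0.83 for Myl7, -0.83 to 0.85 for Mybphl, each highest without male control 3, and from -0.12 to 0.56 for Dkk3. The log2 difference of Myl7 to Myl2 ran from -0.49 to -0.058, that of Myl4 to Myl3 from -0.77 to -0.36, and that of Mybphl to Mybpc3 from -0.42 to 0.079, and was above 0 without male CKD 3, male control 3, female control 2 or female control 4.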
